A study of Mus musculus with 6 samples.

Results

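WNT ligands are secreted signalling proteins that keep intestinal stem cells dividing and pattern the crypt and villus, and the stroma under the gut epithelium is one of their sources. The 8 genes described here, Wnt2, Wnt2b, Wnt4, Wnt5a, Wnt5b, Wnt6, Wnt9a and Wnt11, were taken by symbol from the gene list of the deposited count matrices, and 8 of 8 were found among the 33697 genes. Their levels were followed through every class of stromal cell in the sort (several kinds of fibroblast, pericytes, myofibroblasts, lymphatic and blood endothelium and glia) and through 4 regions of the gut.

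The cells came from Flare-TSLP mice on the C57BL/6 background, whose Tslp locus carries a reporter, the red fluorescent protein tdTomato, that shows where the gene is transcribed. Live tdTomato+ cells of the lamina propria, the connective tissue below the epithelium, were sorted from pooled female and male mice of 8 to 12 weeks, for which no treatment is given in the labels, and captured in droplets. There were 2 libraries of the proximal small intestine (labelled proximal jejunum), 2 of the distal small intestine (labelled distal ileum), 1 of the cecum and 1 of the large intestine. Each library was handled as 1 sample, since the antibody barcodes that marked the pooled mice are not paired with mice in the sources used here. The p-values therefore measure the spread between these libraries, which may be partly technical. In the comparisons of classes it is the spread left after differences between libraries are removed, estimated over all classes together. All groups carry the reporter allele and no library of sorted tdTomato-negative cells is among them. A tdTomato UMI was found in 2589 of the 93912 cells used (2.76%), and in none of the 1451 blood endothelial-like, 483 T or innate lymphoid-like and 182 glia-like cells, so the transcript does not show which cells carried the reporter protein. The study left out clusters with almost no tdTomato+ cells as contaminants. That step was not applied here, so classes without such cells are kept and described below.

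WNT proteins are given a lipid by the acyltransferase Porcn and carried to the cell surface by Wls. At the receiving cell they bind Frizzled receptors. In the beta-catenin branch, which ligands such as Wnt2 and Wnt2b are known to use, this leads to transcription of genes such as Axin2 and Lef1, and R-spondins acting through Lgr receptors strengthen it. Wnt5a, Wnt5b and Wnt11 are known mainly for the other branch, which acts on cell polarity and movement, and Wnt4 can act in either. Secreted inhibitors of the Sfrp and Dkk families, Frzb and Wif1 hold the ligands in check.

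Between 11175 and 19367 cells per library were used, with a median of 6602 to 9234 UMIs (molecular tags, each marking 1 captured transcript) per cell and 109675337 to 206827504 UMIs on genes per library. Cells were grouped into 23 clusters after 63 genes of the WNT pathway, the 8 ligands included, had been kept out of the variable genes, and 19 clusters took the names of 13 classes from their markers. Because the names rest on rebuilt clusters, each class is written as "-like". Telocyte-like cells had Foxl1, Sox6, Bmp3 and Bmp7, SEMF-like cells (subepithelial myofibroblasts) Agt, Nrg1, Cxcl14 and Itga8, trophocyte-like cells Ackr4, Grem1 and Cd34, and lamina propria fibroblast-like cells Adamdec1 and Edil3. Universal fibroblast-like cells had Pi16 and Dpp4, and LEC-like cells (lymphatic endothelial cells) Lyve1, Prox1 and Flt4. The pericyte-like class had 8 of 8 pericyte markers raised and also 10106 to 16435 CPM of summed smooth muscle markers. The classes do not hold the same clusters in each region. The lamina propria fibroblast-like cells of the small intestine lay in 2 clusters led by Vwc2 or Tmem132c, and those of the cecum and large intestine almost all in another, led by Ccl8 and Wnt4, for which SEMF was the runner-up name. Small intestinal telocyte-like cells lay in a cluster led by Lgr5, and those of the cecum and large intestine in one led by Sox6. No cell of the cluster named SEMF-like came from the cecum or large intestine, which depends on how the Ccl8 and Wnt4 cluster is named. Trophocyte-like and blood endothelial-like cells reached 20 cells in the large intestine but not in the cecum, and glia-like cells reached it in the small intestinal libraries only. Between 36 and 102 cell barcodes were shared by any pair of the 6 libraries, and none were removed.

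Levels are in CPM, the UMIs of a gene in every 1000000 UMIs that a class had in 1 library. The kit tags the 3′ end of a transcript once, so that levels of different genes can be set side by side without a correction for length. A class level was given where the library held at least 20 cells of the class. Barcodes with at most 100 UMIs, taken as droplets with free RNA and no cell, held 2.90 to 3.82% of all UMIs, these genes among them. The share of free RNA in the droplets with cells was not measured, and the level in pooled immune cells (B or plasma, T or innate lymphoid and myeloid cells, 80 to 667 cells per library) is given beside low values. It may be no true zero, since myeloid cells can make WNT ligands themselves. Wnt4 in the small intestinal libraries was at 27.1 to 71.3 CPM in myeloid-like cells against 5.14 to 11.7 CPM in B or plasma cell-like cells. In these myeloid-like cells the 6 lamina propria fibroblast markers summed to 1428 to 3315 CPM and the 10 SEMF markers to 163 to 286 CPM. The part of such carried-over RNA or cells in their Wnt4 level was not tested.

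**Figure D1:**
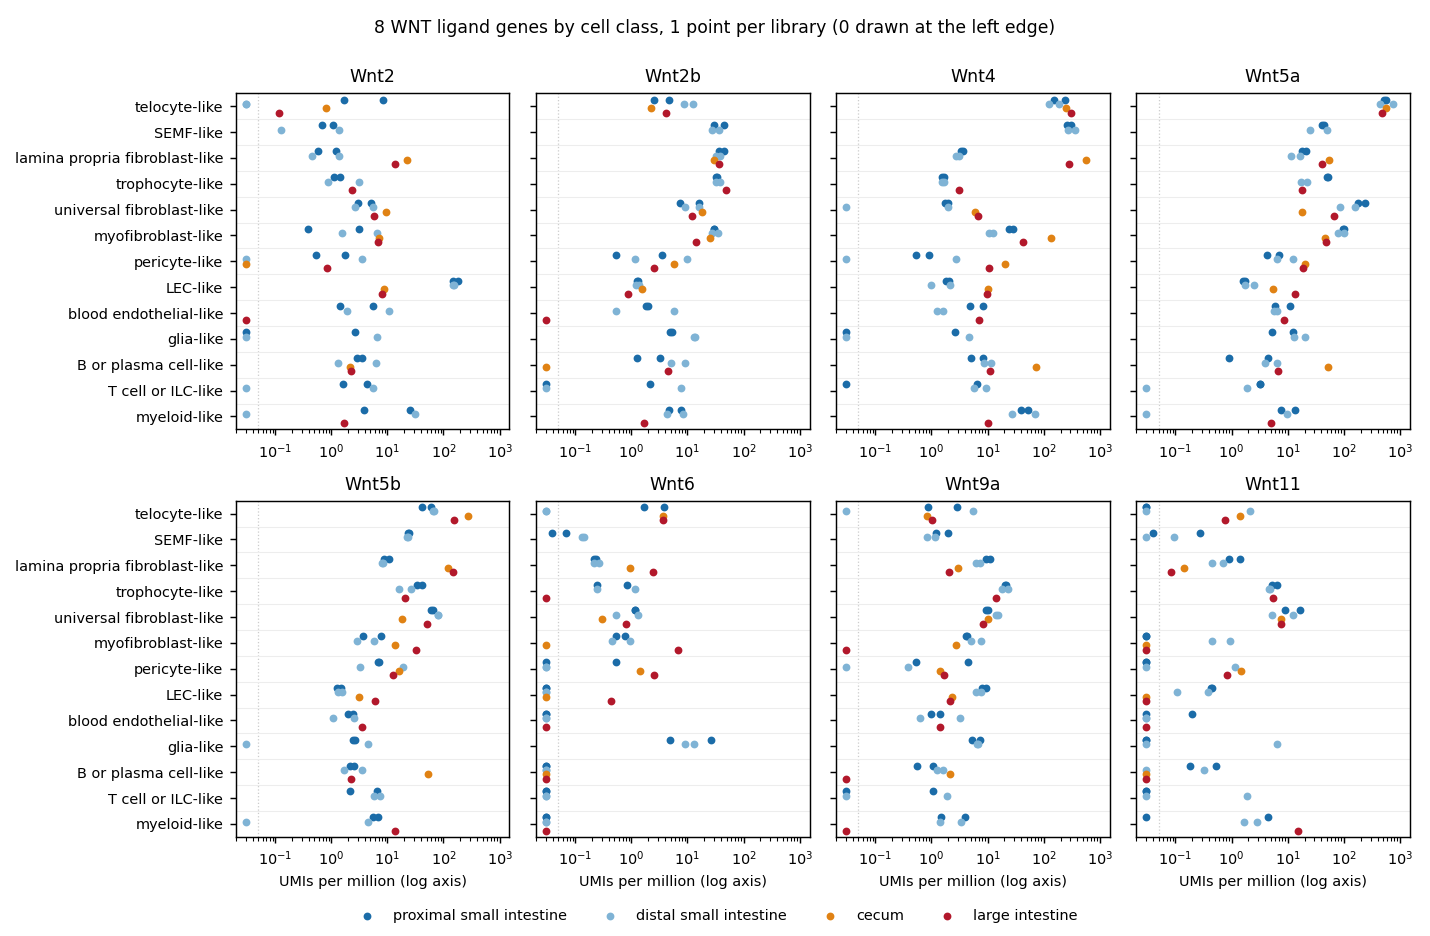
Level of each of the 8 WNT ligand genes (x axis, CPM, log scale, 0 drawn at the left edge) in 13 cell classes (rows), with 1 point for each library coloured by region. Wnt2 stands out in LEC-like cells of the small intestine, Wnt4 in SEMF-like and telocyte-like cells and in lamina propria fibroblast-like cells of the cecum and large intestine, and Wnt5a in telocyte-like cells.

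Telocyte-like cells held the most WNT ligand transcripts, 892 ± 177 CPM for the 8 genes together (SD, n = 6). Lamina propria fibroblast-like cells, at 272 CPM over all libraries, and LEC-like cells, at 127 CPM, differed by region and are given by region below. Among the other named classes SEMF-like cells came next with 398 ± 40.8 CPM (n = 4), then universal fibroblast-like cells with 228 ± 94.0 CPM (n = 6), myofibroblast-like cells with 169 ± 30.6 CPM (n = 6) and trophocyte-like cells with 125 ± 24.1 CPM (n = 5). The lamina propria fibroblast-like class split by region, with 76.8 ± 13.3 CPM in the small intestine (n = 4) and 662 ± 195 CPM in the cecum and large intestine (n = 2). LEC-like cells had 173 ± 17.8 CPM in the small intestine and 36.2 ± 7.15 CPM in the cecum and large intestine. Glia-like cells had 49.8 ± 12.5 CPM (n = 4), pericyte-like cells 36.0 ± 20.3 CPM (n = 6) and blood endothelial-like cells 21.9 ± 5.04 CPM (n = 5). B or plasma cell-like cells of the small intestine had 24.3 ± 7.76 CPM (n = 4), and their range of 14.1 to 31.4 CPM took in all 5 blood endothelial-like libraries. T or innate lymphoid-like cells of the small intestine had 19.6 ± 5.31 CPM (n = 4). Other immune levels reached further up, with 85.7 ± 13.6 CPM in small intestinal myeloid-like cells (n = 4), above glia-like and pericyte-like cells and the mean of small intestinal lamina propria fibroblast-like cells, and with 183 and 26.5 CPM in B or plasma cell-like cells of the cecum and large intestine. Of the unnamed clusters, the cycling cells led by Top2a and Stmn1 had 339.5 ± 237 CPM (n = 6), and the small intestinal cluster led by Scg2 had 238 ± 47.4 CPM (n = 4).

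**Figure D2:**
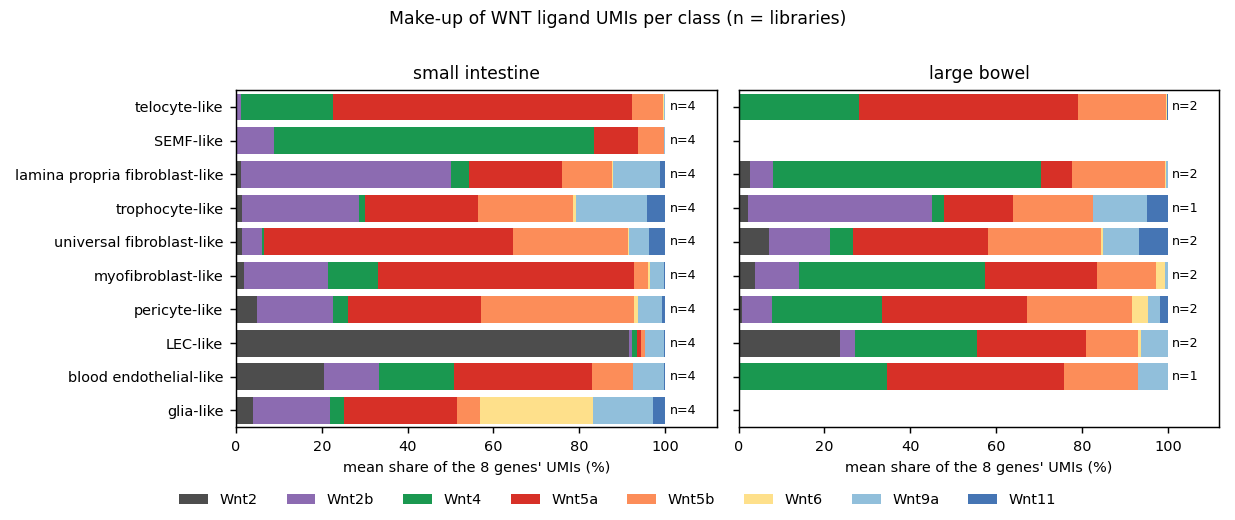
Mean share of the UMIs of the 8 genes that each gene took (x axis, percent) in each class (rows), in the small intestine (left) and in the cecum and large intestine (right, large bowel), with the number of libraries at the end of each bar. Wnt2 took nearly all of the bar in LEC-like cells of the small intestine and Wnt4 most of it in SEMF-like cells, whereas Wnt5a, Wnt5b and Wnt2b were spread over several fibroblast classes.

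Wnt2 (chromosome 6, 17985468 to 18031892, minus strand of GRCm39) was highest in LEC-like cells, at 145 and 184 CPM in the proximal, 148 and 156 CPM in the distal small intestinal libraries, 8.57 CPM in the cecum and 8.17 CPM in the large intestine. The 4 small intestinal libraries and the 2 others did not overlap. A Wnt2 UMI was found in 58.8 ± 6.44% of the small intestinal LEC-like cells and in 3.84 ± 0.0545% of those of the cecum and large intestine, and in 30.9% and 1.46% after each cell had been thinned to 2500 UMIs, a depth that every cell had. The median depth of LEC-like cells was 6024 and 6025 UMIs. A Wnt2 UMI was in 3.13% of small intestinal (0.922% thinned) and 1.64% of the other B or plasma cell-like cells (0.676% thinned), at median depths of 12377 and 4101 UMIs. Wnt2 took 91.6% of the UMIs of the 8 genes in LEC-like cells of the small intestine. Above 10 CPM outside LEC-like cells were lamina propria fibroblast-like cells of the cecum (22.0 CPM) and large intestine (13.4 CPM), blood endothelial-like cells of the second distal library (10.7 CPM), the unnamed cluster of cycling cells in both proximal libraries and the second distal one (25.4, 30.3 and 29.0 CPM), and myeloid-like cells. In the last of these Wnt2 was at 3.76 and 25.3 CPM in the proximal, 0 and 31.4 CPM in the distal libraries and 1.68 CPM in the large intestine. In the same myeloid-like cells the 7 LEC markers summed to 504 and 1785, 170 and 2623, and 97.7 CPM in the same order, and their part in the Wnt2 level was not tested.

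Wnt2b (chromosome 3, 104851289 to 104869237, minus strand) was spread over 4 classes. It was at 45.6 and 30.0 CPM in the proximal and 36.0 and 27.2 CPM in the distal small intestinal libraries of SEMF-like cells. Trophocyte-like cells had 32.2 and 33.2 CPM in the proximal, 31.8 and 38.5 CPM in the distal small intestinal libraries and 48.2 CPM in the large intestine. In lamina propria fibroblast-like cells it was at 35.7 and 44.9 CPM in the proximal, 31.6 and 37.5 CPM in the distal small intestinal libraries, 29.3 CPM in the cecum and 36.2 CPM in the large intestine. These 3 classes overlapped in their values, and myofibroblast-like cells, at 14.4 to 35.0 CPM, overlapped with them too. Universal fibroblast-like cells were lower, at 7.46 to 18.5 CPM, telocyte-like cells at 2.25 to 12.8 CPM, pericyte-like cells at 0.53 to 9.77 CPM and LEC-like cells at 0.860 to 1.56 CPM. Within the small intestinal trophocyte-like cells the cluster led by Alk had 39.0, 41.7, 39.7 and 47.0 CPM and the cluster led by Pde4c 25.1, 26.7, 26.4 and 32.1 CPM. A predicted gene on the same strand, Gm43846, overlaps Wnt2b, and how the counting divided shared reads is not given in the sources used here.

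Wnt4 (chromosome 4, 137004373 to 137027037, plus strand) was highest by mean over libraries in SEMF-like cells, which lie right under the epithelium and were named in the small intestine alone. It was at 308 and 257 CPM in the proximal and 359 and 267 CPM in the distal small intestinal libraries of this class, where 70.5% of the cells had a UMI (44.0% thinned, median depth 8543 UMIs), against 7.89% (3.51% thinned, 11905 UMIs) of B or plasma cell-like cells. Telocyte-like cells had 153 and 235 CPM in the proximal, 187 and 125 CPM in the distal small intestinal libraries, 254 CPM in the cecum and 311 CPM in the large intestine. In lamina propria fibroblast-like cells it was at 3.32 and 3.59 CPM in the proximal, 3.04 and 2.74 CPM in the distal small intestinal libraries, 572 CPM in the cecum and 279.9 CPM in the large intestine. The small intestinal and the other libraries of this class did not overlap, the cecal library lay above every SEMF-like one, and Wnt4, although kept out of the clustering, was the second gene by fold of the cluster that held the latter. Myofibroblast-like cells had 24.1 and 28.8 CPM in the proximal, 12.3 and 10.8 CPM in the distal small intestinal libraries, 134 CPM in the cecum and 43.2 CPM in the large intestine. Trophocyte-like cells had 1.53 to 3.11 CPM and small intestinal LEC-like cells 0.964 to 2.12 CPM, below the pooled immune cells of the small intestine, at 10.1 to 30.7 CPM. The unnamed cycling cluster had 119, 169.6, 194 and 98.8 CPM in the small intestinal libraries, 552 CPM in the cecum and 91.5 CPM in the large intestine.

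Wnt5a (chromosome 14, 28226495 to 28249405, plus strand) was highest in telocyte-like cells, at 557 and 531 CPM in the proximal, 766 and 436 CPM in the distal small intestinal libraries, 573 CPM in the cecum and 489 CPM in the large intestine. The values overlapped between regions. A UMI was in 88.1% of these cells (63.5% thinned, median depth 8619 UMIs), against 6.35% (1.89% thinned) of B or plasma cell-like cells. Among the named classes universal fibroblast-like cells came next with 183 and 239 CPM in the proximal, 85.5 and 160.1 CPM in the distal small intestinal libraries, 18.2 CPM in the cecum and 68.2 CPM in the large intestine, and the small intestinal libraries of this class were all above the other 2. Myofibroblast-like cells had 103 and 95.2 CPM in the proximal, 78.6 and 99.3 CPM in the distal small intestinal libraries, 46.0 CPM in the cecum and 49.1 CPM in the large intestine. An unnamed small intestinal cluster led by Scg2 had 167, 194, 169.8 and 256 CPM. SEMF-like cells had 25.3 to 50.012 CPM, trophocyte-like cells 17.6 to 52.4 CPM and lamina propria fibroblast-like cells 11.3 to 54.1 CPM, and these 3 overlapped. Pericyte-like cells had 4.21 to 20.3 CPM, glia-like cells 5.24 to 20.7 CPM and blood endothelial-like cells 5.67 to 10.9 CPM, whereas pooled immune cells had 3.27 to 5.58 CPM in the small intestine, 35.5 CPM in the cecum and 6.78 CPM in the large intestine.

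Wnt5b (chromosome 6, 119409323 to 119521897, minus strand), a close relative of Wnt5a, had its highest mean over all libraries in telocyte-like cells too, at 40.9 and 59.3 CPM in the proximal, 65.9 and 66.9 CPM in the distal small intestinal libraries, 271 CPM in the cecum and 157 CPM in the large intestine, where the cecum and large intestine lay above the small intestinal libraries. Lamina propria fibroblast-like cells had 8.58 and 10.6 CPM in the proximal, 8.0 and 8.23 CPM in the distal small intestinal libraries, 118 CPM in the cecum and 148 CPM in the large intestine. In universal fibroblast-like cells it was at 63.9 and 60.1 CPM in the proximal, 80.2 and 78.7 CPM in the distal small intestinal libraries, 18.3 CPM in the cecum and 51.3 CPM in the large intestine, with the order of regions the other way round, and in each of the 4 small intestinal libraries it was higher than in telocyte-like cells. Trophocyte-like cells had 16.1 to 40.9 CPM, SEMF-like cells 22.2 to 24.2 CPM, myofibroblast-like cells 2.92 to 32.2 CPM and pericyte-like cells 3.26 to 19.2 CPM, while LEC-like, blood endothelial-like and glia-like cells stayed at or under 6.02 CPM. The predicted gene Gm68838 overlaps Wnt5b on the same strand, so its reads may be divided too.

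Wnt6 (chromosome 1, 74810922 to 74824975, plus strand) was rare everywhere and highest in glia-like cells. These gave 4.94 and 26.2 CPM in the proximal and 9.18 and 12.8 CPM in the distal small intestinal libraries, from 2 and 10 and from 4 and 2 UMIs. The unnamed cluster led by Ccl19 and Ccl2 had 15.3 CPM in the large intestine, from 6 UMIs in 31 cells. Telocyte-like cells had 0 to 3.76 CPM, and myofibroblast-like cells had 6.78 CPM in the large intestine and 0.449 to 0.947 CPM in the small intestine. No Wnt6 UMI was counted in blood endothelial-like, B or plasma, T or innate lymphoid, or myeloid-like cells.

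Wnt9a (chromosome 11, 59197567 to 59224378, plus strand) was highest in trophocyte-like cells, the fibroblasts of the crypt base and submucosa, at 20.4 and 21.6 CPM in the proximal, 18.0 and 23.1 CPM in the distal small intestinal libraries and 14.0 CPM in the large intestine. Universal fibroblast-like cells had 8.46 to 15.1 CPM, which overlapped with the trophocyte-like range at 15.1 CPM. LEC-like cells had 9.26 and 8.05 CPM in the proximal, 7.52 and 6.18 CPM in the distal small intestinal libraries, 2.34 CPM in the cecum and 2.15 CPM in the large intestine, and lamina propria fibroblast-like cells 9.27 and 11.2 CPM in the proximal, 7.26 and 6.19 CPM in the distal small intestinal libraries, 2.92 CPM in the cecum and 2.08 CPM in the large intestine. In both classes the cecum and large intestine lay under the small intestinal libraries. SEMF-like cells had 0.817 to 1.96 CPM, glia-like cells 5.24 to 7.41 CPM and myofibroblast-like cells 0 to 7.58 CPM.

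Wnt11 (chromosome 7, 98484319 to 98504402, plus strand) was found in few cells, and its highest class was the universal fibroblast-like cells, which lie in the outer layers of many organs, at 8.87 and 16.9 CPM in the proximal, 5.31 and 12.5 CPM in the distal small intestinal libraries, 7.75 CPM in the cecum and 7.70 CPM in the large intestine. A Wnt11 UMI was in 7.59% of these cells (2.42% thinned, median depth 7844.5 UMIs), against 0.177% (0% thinned) of B or plasma cell-like cells. Trophocyte-like cells had 4.66 to 6.49 CPM, and the cluster led by Pde4c had 6.88, 8.15, 6.35 and 6.68 CPM against 3.82, 4.32, 2.21 and 2.60 CPM in the cluster led by Alk. Among the other stromal classes no library passed 6.41 CPM, the level that 1 UMI gave in 1 glia-like library, and myeloid-like cells of the large intestine had 15.2 CPM, from 9 UMIs in 36 cells.

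Which ligands set the fibroblast classes apart was tested with edgeR on UMIs summed per library and class, in 1 fit over all classes with the library as a block and adjustment over all 14915 genes tested. Each test is given by its fitted log2 fold change, called log2 change, the standard error of that (SE) and the adjusted p. Telocyte-like cells differed from SEMF-like cells in 5 of the 8 ligands, 4 higher and 1 lower, where 22.7% of all genes were called. Wnt5a was higher in telocyte-like cells (log2 change 3.73, SE 0.50, adjusted p = 1.83e-08), and Wnt2b was lower (log2 change -2.90, SE 0.33, adjusted p = 2.16e-10). The rare Wnt6 (2.15 against 0.0953 CPM) and Wnt11 (0.727 against 0.102 CPM) passed the test as well, and the Wnt11 call was lost with the small intestinal libraries alone. Wnt5b did so with an adjusted p of 0.0428 and lost the call in 9 of 16 alternatives, among them without any 1 of the 4 small intestinal libraries and without the cecum. Wnt4 was at 211 against 298 CPM and was not called (adjusted p = 0.0994). The telocyte-like mean includes the cecum and large intestine, where no SEMF-like cells were named. In the small intestinal libraries Wnt4 was at 125 to 235 CPM in telocyte-like and 257 to 359 CPM in SEMF-like cells, without overlap.

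SEMF-like and trophocyte-like cells differed in 4 of 8 ligands, with 44.2% of all genes called. Wnt4 was higher in SEMF-like cells (log2 change 7.30, SE 0.75, adjusted p = 3.5e-12). Wnt9a (log2 change -4.36, SE 0.32, adjusted p = 2.06e-17) and Wnt11 (log2 change -5.93, SE 0.65, adjusted p = 2.05e-11) were lower. So was Wnt6, at 0.0953 against 0.50 CPM, a call that was lost without the second proximal library and with each cell gated by its own markers. Lamina propria fibroblast-like cells differed from trophocyte-like cells in 3 of 8 against 20.8% of all genes. Wnt11 (-3.22) and Wnt9a (-1.73 on the log2 scale) were lower. Wnt4 was called higher (3.73), a value that joins small intestinal libraries of 2.74 to 3.59 CPM with those of the cecum and large intestine. This call was lost with only the 2 classes in the fit. With the small intestinal libraries alone, 7 of 8 ligands were called, 1 higher and 6 lower, where 27.8% of all genes were. Among the 6 was Wnt2 (-0.96), which in the fit over all libraries was 1.07 and not called. Universal fibroblast-like cells differed from trophocyte-like cells in 2 of 8, where 11.9% of all genes were called, with Wnt5a higher (log2 change 1.78, SE 0.42, adjusted p = 0.00183) and Wnt2b lower (log2 change -1.44, SE 0.25, adjusted p = 2.37e-05). With the small intestinal libraries alone, 5 of 8 were called, 3 higher and 2 lower, where 16.7% of all genes were, and with each cell gated by its own markers in place of clusters, 0 of 8.

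Myofibroblast-like cells, which contract, differed from SEMF-like cells in 4 of 8 (33.5% of all genes), with Wnt4 lower (log2 change -4.17, SE 0.63, adjusted p = 2.81e-07), Wnt5b lower (-1.97) and Wnt9a (1.89) and Wnt6 (3.05) higher. The Wnt5b call was lost without the library block, that of Wnt9a with doublets kept and that of Wnt6 with cells gated one by one. Their Wnt5a, at 78.5 against 40.1 CPM, was not called (adjusted p = 0.0806). Pericyte-like cells differed from myofibroblast-like cells in 4 of 8 and all 4 were lower (36.9% of all genes): Wnt2b (log2 change -3.31, SE 0.40, adjusted p = 4.4e-10), Wnt5a (log2 change -2.71, SE 0.51, adjusted p = 1.4e-05), Wnt4 (-2.89) and Wnt9a (-1.35, adjusted p = 0.0337). The Wnt9a call was lost in 6 of 16 alternatives, among them without the second proximal or either distal library. With doublets kept 2 of these 4 ligands were called and with cells gated one by one 1. Against trophocyte-like cells, pericyte-like cells were lower in 5 of 8 and higher in none (51.0% of all genes). Wnt2b (-3.97) and Wnt9a (-3.82) led these differences, and the lower Wnt5a (-1.71) was not called without the first or without the second proximal library, and was 0.16 with cells gated one by one.

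Lymphatic and blood endothelium differed in Wnt2 and Wnt9a (2 of 8, where 46.8% of all genes were called). Wnt2 was at 108 against 3.90 CPM on average (log2 change 5.05, SE 0.82, adjusted p = 5.96e-07), with the LEC-like libraries of the cecum and large intestine inside the blood endothelial-like range. With the small intestinal libraries alone 4 of 8 ligands were called, 2 higher and 2 lower, where 52.1% of all genes were. Wnt9a was at 5.92 against 1.53 CPM (log2 change 2.09, SE 0.40, adjusted p = 1.67e-05). Glia-like cells, which ensheathe enteric neurons, differed from trophocyte-like cells in 4 of 8 (31.4% of all genes). Wnt6 was higher (log2 change 4.18, SE 0.70, adjusted p = 6.56e-06), and Wnt2b (-2.41), Wnt9a (-2.05) and Wnt5b (-3.43) were lower. In the glia-like cells the 7 glia markers summed to 3456 and 2866 CPM in the proximal and 2115 and 3453 CPM in the distal libraries, and the 6 lamina propria fibroblast markers to 1707 and 1355 and to 3963 and 3779 CPM, above the glia markers in both distal libraries. The 8 telocyte markers summed to 921 to 1115 CPM and the 6 trophocyte markers to 653 to 1488 CPM, below the glia markers. The part of cells of these other classes in the result was not tested. The Wnt5b call was lost in 6 of 17 alternatives, among them without the first proximal, the second proximal or the first distal library.

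The cecum and large intestine (1 library each, 2 in all) were compared with the 4 small intestinal libraries in each class that held at least 20 cells in all 6. In lamina propria fibroblast-like cells 7 of 8 ligands were called, 5 higher and 2 lower, where 37.9% of all genes were called. Wnt4 rose from 3.17 ± 0.365 CPM (SD, n = 4) to 426 ± 206 CPM (SD, n = 2) (log2 change 7.07, SE 0.30, adjusted p = 3.59e-05). Wnt5b rose from 8.86 ± 1.2 CPM (SD, n = 4) to 133 ± 20.9 CPM (SD, n = 2) (log2 change 3.91, SE 0.13, adjusted p = 2.07e-05). Wnt2 (log2 change 4.31, SE 0.42, adjusted p = 0.000632) and Wnt5a (log2 change 1.51, SE 0.22, adjusted p = 0.00313) rose as well, and so did the rare Wnt6 (1.71 against 0.232 CPM). Wnt9a (-1.75) and Wnt11 (-2.89, 0.114 against 0.868 CPM) fell, and the Wnt11 call was lost without the cecum and without the large intestine. The Wnt5a and Wnt9a calls were lost with cells gated one by one. Wnt2b alone was not called (log2 change -0.19, SE 0.14, adjusted p = 0.298). As the regions held different clusters of this class, the changes set side by side different kinds of lamina propria fibroblast-like cell. The 10 SEMF markers summed to 187 to 475 CPM in the small intestinal and to 1480 and 1011 CPM in the cecal and large intestinal cells of the class, against 3135 to 3975 CPM in SEMF-like cells. The 6 lamina propria fibroblast markers in turn summed to 5496 to 8477 CPM in SEMF-like cells, above the SEMF markers in all 4 libraries, and the part of such cells in the result was not tested.

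**Figure D3:**
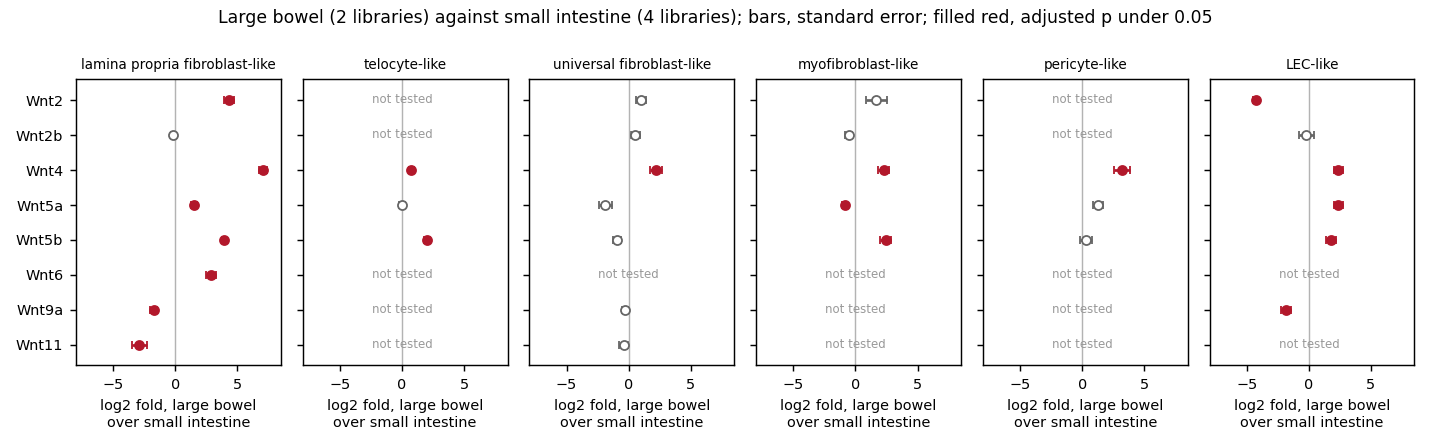
Fitted log2 fold change of each ligand in the cecum and large intestine (large bowel) over the small intestine (x axis) in 6 classes (panels), with bars of 1 standard error. Filled red points passed an adjusted p of 0.05 and "not tested" marks genes under the filter on counts. Wnt4 lies to the right of 0 in all 6 panels, Wnt2 lies to the left in LEC-like cells and to the right in the other 3 panels where it was tested, and Wnt5a lies on either side.

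In LEC-like cells Wnt2 fell from 158 ± 17.7 CPM (SD, n = 4) to 8.37 ± 0.284 CPM (SD, n = 2) in the cecum and large intestine (log2 change -4.29, SE 0.21, adjusted p = 3.73e-06), and 5 of the 6 ligands tested were called (23.0% of all genes). Wnt9a fell too (log2 change -1.83, SE 0.41, adjusted p = 0.0121), a call that was lost with limma-voom, without the cecum and without the large intestine. Wnt4 (2.38), Wnt5a (2.37) and Wnt5b (1.78) rose on the log2 scale. With doublets kept the Wnt4 change was -0.38 and the other rises were not called, and without the large intestine Wnt5a and Wnt5b were not called. Their levels there, 10.1 CPM in the cecum and 9.89 CPM in the large intestine for Wnt4 and 3.12 CPM in the cecum and 6.02 CPM in the large intestine for Wnt5b, lay below those of pooled immune cells from the same libraries, at 82.9 CPM in the cecum and 22.0 CPM in the large intestine for Wnt4 and 51.8 CPM in the cecum and 14.4 CPM in the large intestine for Wnt5b. For Wnt5a the large intestinal level of 13.8 CPM lay above the immune level of 6.78 CPM, and the cecal level of 5.45 CPM below that of 35.5 CPM. In free RNA of the cecum and large intestine Wnt4 was at 175 and 138 CPM, Wnt5a at 54.2 and 161 CPM and Wnt5b at 65.3 and 86.8 CPM. All of these lay above the LEC-like levels of the same library. The 8 telocyte markers summed to 132 and 131 CPM in these LEC-like cells and to 59.8 to 75.4 CPM in those of the small intestine. Universal fibroblast markers were also higher, at 522 and 696 against 424 to 488 CPM. Other lists did not rise. Lamina propria fibroblast markers summed to 304 and 225 against 185 to 367 CPM. Trophocyte markers, at 657 and 585 against 902 to 1014 CPM, and pericyte markers, at 59.2 and 58.5 against 228 to 288 CPM, were lower. An alternative subtracted 10% free RNA, a share that was assumed and not measured, and the part of free RNA in the 3 rises was not tested.

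The cecum and large intestine gave 232 and 263 LEC-like cells, against 789 to 6133 in the small intestinal libraries, and a finer clustering showed that most of them were of a kind that is rare in the small intestine. In the cluster led by Nts and Ccl21a, which held 195 and 208 of them and 31 to 47 cells of each small intestinal library, Wnt2 was at 62.4, 87.2, 64.3 and 58.8 CPM in the small intestinal libraries and 8.82 and 9.70 CPM in the cecum and large intestine (log2 change -2.77, SE 0.35, adjusted p = 0.00158 in edgeR). In the cluster led by Apold1 and Depp1 it was at 137, 175, 145 and 150.4 CPM and, from 1 UMI each in 26 and 22 cells, at 5.45 and 4.69 CPM (log2 change -5.02, SE 0.46, adjusted p = 0.00022). The third cluster, led by Tll1, had 162, 209.8, 160.0 and 163 CPM and, in 11 and 33 cells, 12.7 and 0 CPM. Wnt2 was thus lower in the cecum and large intestine within the Nts and Apold1 clusters. In the Tll1 cluster, with 11 and 33 cells from these regions, its values were lower too but were not tested. Within the small intestine Wnt2 was lower in the Nts cluster than in the others. Of the 7 LEC markers, Lyve1 in the Nts cluster was at 2128 ± 436 CPM in the small intestinal (n = 4) and 3797 ± 157 CPM in the other libraries (n = 2), Prox1 at 679 ± 146 and 904 ± 44.7 CPM, and Ccl21a was higher in the other libraries as well. Reln was at 3618, 1726, 2984 and 1980 CPM in the small intestinal and 1868 and 1675 CPM in the other libraries of this cluster, so that their values overlapped. In the Apold1 cluster Flt4 (1009 to 1261 against 850 and 765 CPM), Mmrn1 (4152 to 5079 against 3199 and 3232 CPM) and Reln (4082 to 4760 against 2529 and 2613 CPM) were lower in the cecum and large intestine, and Lyve1 and Ccl21a higher. None of these marker levels was tested.

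**Figure D4:**
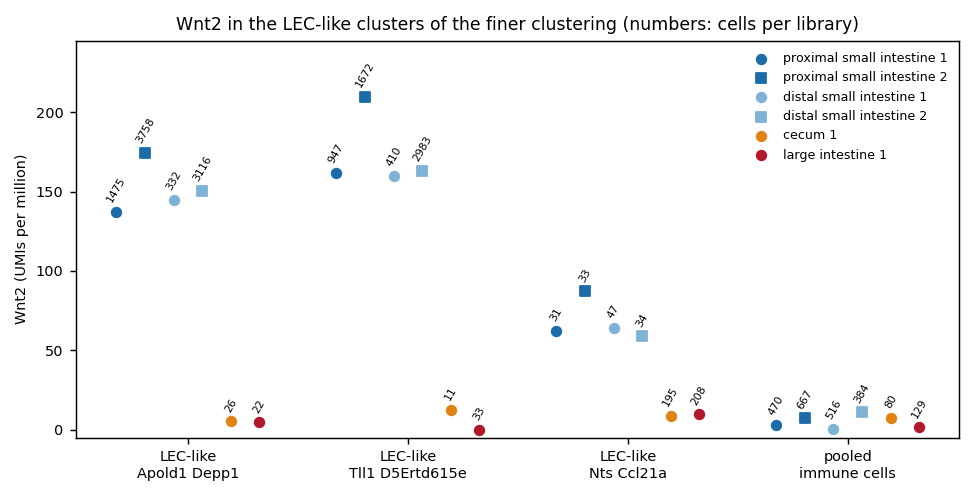
Wnt2 level (y axis, CPM) in the 3 LEC-like clusters of the finer clustering and in pooled immune cells, with 1 point for each library and the number of cells above it. In each LEC-like cluster the 4 small intestinal libraries, at 58.8 to 210 CPM, lie above the cecum and large intestine, at 0 to 12.7 CPM.

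In telocyte-like cells 2 of 3 tested ligands were called (18.6% of all genes), and Wnt5a, their most abundant ligand, was not (log2 change -0.03, SE 0.25, adjusted p = 0.95). Wnt5b rose (log2 change 2.00, SE 0.26, adjusted p = 0.00191). As the small intestinal cells lay in the cluster led by Lgr5 and the others in that led by Sox6, different kinds of telocyte-like cell are set side by side. The 8 telocyte markers in telocyte-like cells summed to 5391 to 7823 CPM in the small intestine and to 3636 and 4152 CPM in the cecum and large intestine. The 10 SEMF markers summed to 3218 to 5068 CPM in the small intestinal, 5353 CPM in the cecal and 3797 CPM in the large intestinal cells. The 6 lamina propria fibroblast markers summed to 2377 to 5518 CPM in the small intestinal and 9533 CPM in the cecal cells. The part of these differences in the result was not tested. Wnt4 was called at the threshold (log2 change 0.76, SE 0.23, adjusted p = 0.0489) and lost the call in 7 of 13 alternatives, among them without the first proximal, either distal, the cecal or the large intestinal library. Myofibroblast-like cells had 3 of 5 called (15.4% of all genes). Wnt4 (log2 change 2.27, SE 0.46, adjusted p = 0.0107) and Wnt5b (log2 change 2.45, SE 0.45, adjusted p = 0.00692) rose and Wnt5a fell (log2 change -0.87, SE 0.17, adjusted p = 0.00978). The Wnt4 and Wnt5a calls were lost without the cecum, and those of Wnt5b and Wnt5a without the large intestine. Wnt5b was at 13.9 CPM in the cecum, from 10 UMIs, below the 51.8 CPM of pooled immune cells of that library, and at 32.2 CPM in the large intestine, above their 14.4 CPM. The 8 myofibroblast markers in these cells summed to 31480 and 35993 CPM in the large intestine and cecum and to 15388 to 24121 CPM in the small intestine.

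Pericyte-like cells had 1 of 3 called (17.0% of all genes), Wnt4, from 1.03 ± 1.17 CPM (SD, n = 4) to 20.3 CPM in the cecum and 10.5 CPM in the large intestine, levels under those of pooled immune cells of the same 2 libraries. Their Wnt5a (19.4 against 7.64 CPM) missed the threshold (adjusted p = 0.0515). Universal fibroblast-like cells had 1 of 7 called (6.85% of all genes), also Wnt4, at 6.03 CPM in the cecum and 6.64 CPM in the large intestine, again under the immune level. The call was lost with limma-voom, and without any of the first proximal, second proximal, second distal or cecal libraries. Their lower Wnt5a in the cecum and large intestine (log2 change -1.88, SE 0.51, adjusted p = 0.0615) was not called.

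Whether a ligand changed differently in different classes was tested in edgeR by 4 interactions, chosen after the changes in single classes had been seen, and 11 of their 29 tests of a ligand were called. Against LEC-like cells, the change towards the cecum and large intestine in lamina propria fibroblast-like cells was higher by 8.65 on the log2 scale for Wnt2 (SE 0.37, adjusted p = 5.51e-06 for the interaction), where 12.8% of all genes were called. Against myofibroblast-like cells it was higher by 4.83 for Wnt4 (SE 0.26, adjusted p = 3.19e-08) and by 2.36 for Wnt5a (SE 0.21, adjusted p = 3.45e-06), where 4.73% of all genes were called. Universal fibroblast-like against LEC-like cells had 3 ligands called with 8.18% of all genes, and myofibroblast-like against LEC-like cells 2 with 6.86%. Wnt2 and Wnt5a were named here with their opposite calls in these classes known, so the interactions add no independent support to those directions.

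With 1 library each, the cecum and large intestine can only be set side by side, with 95% Poisson intervals that cover counting error. In lamina propria fibroblast-like cells Wnt4 was at 572 CPM in the cecum (interval 564 to 579.9) and 279.9 CPM in the large intestine (274 to 285). In myofibroblast-like cells it was at 134 CPM (108 to 163) and 43.2 CPM (32.2 to 56.8). Both classes had more Wnt4 in the cecum, and so had pooled immune cells (82.9 against 22.0 CPM) and, among them, B or plasma cell-like cells (73.9 CPM from 34 UMIs against 11.03 CPM from 5). The latter also had 52.2 CPM of Wnt5a and of Wnt5b in the cecum, from 24 UMIs each, against 3 and 1 UMIs in the large intestine. Telocyte-like cells had less Wnt4 in the cecum, at 254 CPM (241 to 269) against 311 CPM (305 to 317). Universal fibroblast-like cells had more Wnt5a and Wnt5b in the large intestine, with 68.2 CPM (64.6 to 72.0) of Wnt5a against 18.2 CPM (16.9 to 19.6) in the cecum, and 51.3 CPM (48.2 to 54.5) of Wnt5b against 18.3 CPM (17.0 to 19.7). Wnt6 in lamina propria fibroblast-like cells was 2.59 times as high in the large intestine. Cycling cells of the Top2a cluster had 6.04 times as much Wnt4 and 2.02 times as much Wnt5b in the cecum.

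Along the small intestine Wnt5a in trophocyte-like cells was the only ligand called. In the distal against the proximal libraries (2 against 2), 1 of the 8 ligands tested was called in trophocyte-like cells, where 0.157% of all genes were, and none of 46 tests of a ligand in 10 other classes was. In glia-like and T or innate lymphoid-like cells no ligand passed the filter on low counts. Over all genes of these 12 classes 0.0227% of the tests were called. By edgeR 6 of the 46 tests had an unadjusted p under 0.05. Over all genes such values ran from 266 of 11151 in universal fibroblast-like to 1139 of 11736 in B or plasma cell-like cells. Among the 6, Wnt5b was higher distally in pericyte-like cells (log2 change 1.21, unadjusted p = 0.0319). Wnt9a in lamina propria fibroblast-like (-0.56, unadjusted p = 0.0190) and Wnt11 in LEC-like cells (-1.61, unadjusted p = 0.0403) were lower. Limma-voom and DESeq2 each called 1 ligand over the 13 classes, Wnt5a in trophocyte-like cells. Wnt5a in trophocyte-like cells was at 49.999, 52.4, 17.6 and 22.1 CPM in the 2 proximal and then the 2 distal libraries, and it fell towards the distal end (log2 change -1.37, SE 0.15, adjusted p = 0.0316). With cells gated one by one the change was -0.92 and not called, and the number of ligands called over the classes was then 0, against 3 without a filter on low counts and 5 with the replicate block. In trophocyte-like cells 403 of 25186 genes were called without the filter and 542 of 16535 with the replicate block, against 26. Both trophocyte-like clusters showed it, with 40.6, 46.9, 14.9 and 18.8 CPM in the cluster led by Pde4c and 59.0, 59.5, 21.4 and 26.4 CPM in the one led by Alk. Wnt5b in the same cells (21.1 against 37.1 CPM, distal against proximal) was not called (adjusted p = 0.636), and neither was Wnt5a in universal fibroblast-like cells (123 against 211 CPM, unadjusted p = 0.037, adjusted p = 1) or in lamina propria fibroblast-like cells (13.9 against 19.8 CPM, unadjusted p = 0.038, adjusted p = 0.894), although in both the proximal libraries lay above the distal ones, or Wnt4 in myofibroblast-like cells (11.6 against 26.5 CPM, unadjusted p = 0.00112, adjusted p = 0.357).

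**Figure D5:**
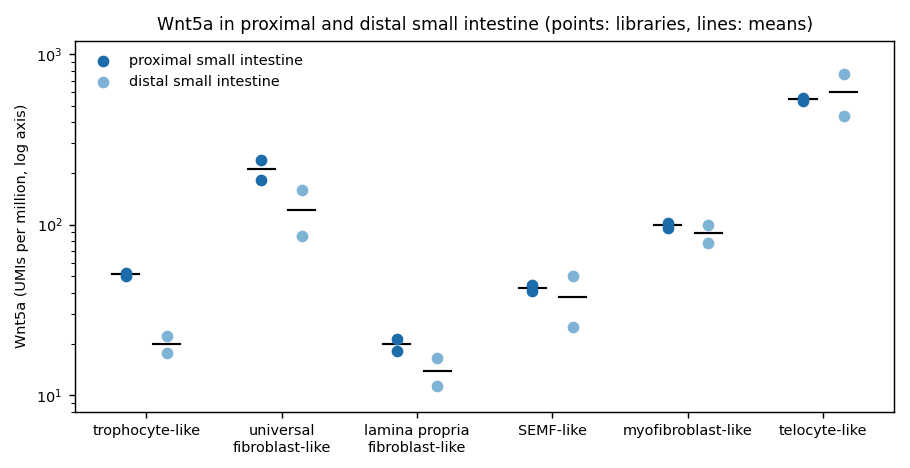
Wnt5a level (y axis, CPM, log scale) in 6 classes of the small intestine, with 1 point for each library and a line at the mean of 2 libraries. The proximal and distal points lie apart in trophocyte-like cells, at 49.999 and 52.4 against 17.6 and 22.1 CPM, and also in universal fibroblast-like and lamina propria fibroblast-like cells, and overlap in SEMF-like, myofibroblast-like and telocyte-like cells.

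The other genes of the pathway were taken from lists of ligands, R-spondins and their receptors, inhibitors and target genes. Of the 11 other WNT ligands 2, Wnt10b and Wnt16, passed the filter on low counts in the fit over classes. Wnt10b was at 5.93 ± 3.17 CPM (SD, n = 6) in universal fibroblast-like cells, above trophocyte-like cells (log2 change 3.33, SE 0.48, adjusted p = 2.49e-06), and no UMI of it was counted in SEMF-like cells. Wnt9b, which did not pass it, was at 4.66 ± 2.37 CPM (SD, n = 6) in LEC-like cells. Wnt16 reached 6.20 CPM in lamina propria fibroblast-like and 12.4 CPM in myofibroblast-like cells of the cecum and large intestine, against 0.0155 and 0 CPM in the small intestine. The carrier Wls was counted in every class, from 43.9 CPM in B or plasma cell-like to 221 CPM in lamina propria fibroblast-like cells. In free RNA it was at 145 to 195 CPM, so the lower class levels do not show that a class makes it. LEC-like cells had more of it than blood endothelial-like cells (log2 change 1.77, SE 0.17, adjusted p = 1.29e-13).

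R-spondins amplify WNT signals. Rspo3 was at 263 against 14.1 CPM in LEC-like and blood endothelial-like cells (log2 change 4.37, SE 0.48, adjusted p = 2.21e-11). Between SEMF-like and trophocyte-like cells 1 of the 8 tested genes of the R-spondin axis was higher and 3 lower, where 44.2% of all genes were called, among the lower ones Rspo1 (0.118 against 8.05 CPM) and Rspo2 (8.0 against 151 CPM). Pericyte-like cells were below trophocyte-like cells in Rspo1, Rspo2 and Rspo3 (-4.09, -6.47 and -4.41 on the log2 scale), and 3 of the 8 tested genes of the axis, Lgr4, Lgr5 and Lgr6, were higher, where 51.0% of all genes were called. Lgr5, a receptor for R-spondins, was at 418 against 0.380 CPM in telocyte-like and SEMF-like cells. In telocyte-like cells it was at 617 CPM in the small intestine and 19.6 CPM in the cecum and large intestine (log2 change -4.93, SE 0.66, adjusted p = 0.00196). The small intestinal cells lay in the cluster led by Lgr5 itself and the others in that led by Sox6, so different kinds of telocyte-like cell were compared. Lgr6 in myofibroblast-like cells was at 41.3 CPM in the small intestine and 0 in the 2 other libraries.

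Of the secreted inhibitors, Frzb was higher in SEMF-like (log2 change 5.00, SE 0.34, adjusted p = 2.8e-18) and lamina propria fibroblast-like cells (4.06) than in trophocyte-like cells. Wif1 was at 18.8 against 0.0324 CPM in telocyte-like and SEMF-like cells and at 9.38 CPM in myofibroblast-like cells, and no UMI of it was counted in pericyte-like cells. Sfrp5 was at 103 against 0.0248 CPM in glia-like and trophocyte-like cells, and Sfrp4 at 36.1 against 5.10 CPM in universal fibroblast-like and trophocyte-like cells. Of the 8 tested inhibitors, 5 were lower in pericyte-like than in myofibroblast-like cells and none was higher, where 36.9% of all genes were called, with Sfrp1 (-3.58) and Dkk3 (-2.64) among them. Dkk2 was lower in the cecum and large intestine in 4 classes. It was at 8.49 against 848 CPM there and in the small intestine in lamina propria fibroblast-like cells (log2 change -6.64), and it fell in myofibroblast-like (-6.80), universal fibroblast-like (-4.33) and pericyte-like cells (-5.20). Dkk2 was itself among the leading genes of the small intestinal lamina propria fibroblast-like clusters, so different kinds of cell were compared in that class. In pericyte-like cells it was at 0.724 against 19.3 CPM. Its level in free RNA is not given here, and the part of free RNA in the other classes was not tested. In telocyte-like cells Dkk2 rose from the proximal to the distal small intestine (log2 change 2.58, SE 0.27, adjusted p = 0.04).

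Genes that respond to WNT signals were counted in the same fits. Lef1 rose in telocyte-like cells of the cecum and large intestine (54.4 against 6.62 CPM, 3.11 on the log2 scale), with 18.4 CPM in one of these libraries and 90.4 CPM in the other, and Apcdd1 fell (-2.92). Axin2 fell in pericyte-like cells (5.73 against 18.2 CPM, adjusted p = 0.00727), and Nkd2 rose in them (11.6 against 4.47 CPM, adjusted p = 0.0225). Nkd2 was at 139 against 3.23 CPM in glia-like and trophocyte-like cells, and at 0.343 against 18.1 CPM in LEC-like and blood endothelial-like cells. The median log2 change of the 6 tested target genes in lamina propria fibroblast-like cells of the cecum and large intestine was -0.81, with 1 called higher and 2 lower against 37.9% of all genes called, where that of all genes was -0.000898 and that of the 8 ligands 2.18. The one called higher was Lef1, at 22.2 against 0.049 CPM (log2 change 8.81, SE 1.59, adjusted p = 0.00645), with 44.0 CPM in one of the 2 libraries and 0.38 CPM in the other.

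Over the mean levels of the 13 named classes, the genes whose pattern was most like that of each ligand were found by Pearson's r of log2(CPM + 1) among 7365 genes. The 13 points share libraries and depth, and the values are a description. For Wnt2 they included Slc45a3 (0.91) and Tnfaip8l3. They were Ptprd (0.97), Rai2 and Gabra3 for Wnt2b, and Nbl1 (0.89), Arhgap20 and Tmem119 for Wnt5a. For Wnt5b they were Htra1 (0.90), Nbl1 and Ptgis, so that Nbl1 stood near both Wnt5 genes. Wnt4 was followed by Hpse (0.93), Cxcl14 and Agt, of which the latter 2 served to name SEMF-like cells. Wnt6 was followed by Ctxnd1 (0.93), Dbi and Grik1, Wnt9a by Fndc1 (0.92), Pnp and Foxp2, and Wnt11 by Metrnl (0.91), Penk and Inmt.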

How the data were processed

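Sorted cells of 6 libraries (1 sample each) were captured with the Chromium 3′ kit. The deposited values are raw UMI counts per gene and barcode, made by the authors with Cell Ranger (8.1.0 per the labels, 8.0.1 per the file headers) against mm39 with a tdTomato sequence. The ambient RNA and doublet corrections of the study are not in the deposited counts. A barcode was kept if it had 2500 to 40000 UMIs on 1000 to 7500 genes, less than 10% of them mitochondrial, and Scrublet (scanpy 1.11.5, expected rate 0.8% per 1000 cells) removed 4.90 to 11.3% of them as doublets. The free RNA profile came from barcodes with at most 100 UMIs. Seurat 5.3.0 clustered the cells of all libraries together, without integration, on 2000 variable genes and 30 principal components at resolution 0.5 (1.0 as an alternative). A cluster took the name of the class with the highest mean log2 fold among those with at least 3 markers raised, a raised marker being detected in 5% or more of the cluster and, with 5 CPM added to both, at 1.5 times its level in the remaining cells. These naming thresholds were set with clusters of the same data in view.

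UMIs were summed per library and class of at least 20 cells. Tests used edgeR 4.0.16 quasi-likelihood fits (R 4.3.3, TMM, filterByExpr with a minimum count of 10) and Benjamini-Hochberg adjustment over all genes at 0.05. Classes were compared as contrasts of 1 fit with library as a block, and regions in 1 fit per class. The standard error is the log2 fold change divided by the root of F. The tests were checked on simulated data. Alternatives were limma-voom (limma 3.58.1), DESeq2 1.42.0, RLE size factors, no filter, each library left out, 10% free RNA subtracted, doublets kept, resolution 1.0, cells gated one by one (at least 3 markers and 2 more than of any other class, which named 53080 of 93912 cells), other sets of classes or libraries in the fit, no library block and a replicate block. Pooled immune cells as a background, single LEC-like clusters and interactions were added after the data were seen.

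The 8 genes are the members given, and the gene and marker lists were chosen with earlier results of these data known. Ligands are all named. Of the other 55 genes of the pathway, up to 4 called genes per comparison were named by size of the fold change, and the most similar genes by Pearson's r among genes reaching 50 CPM in some class. Wnt9b and the unnamed clusters were singled out after their values were seen. Some genes are not reported here. Levels have 95% exact Poisson intervals, which like the floor of 3 counts cover counting error only. Gene positions and overlaps are from the annotation of the same build (GRCm39, equal to mm39). Analyses used numpy 2.4.6, scipy 1.17.1, pandas 2.3.3 and matplotlib 3.10.9.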

Additional observations from a re-analysis of the deposited data

Results flagged for a closer look

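The change towards the cecum and large intestine differed between classes in 11 of 29 tests of a ligand by 4 interactions (edgeR, adjusted over all genes). These class pairs were chosen after the changes in single classes had been seen, so the tests add no independent support to those directions. Lamina propria fibroblast-like minus LEC-like cells gave a difference of 8.65 on the log2 scale for Wnt2 (standard error 0.37, adjusted p = 5.51e-06), 4.70 for Wnt4 (adjusted p = 5.93e-05) and 2.27 for Wnt5b (adjusted p = 0.000353), and 12.8% of all genes were called. For Wnt2 all 4 small intestinal libraries lay below the other 2 in the former class and above them in the latter. Universal fibroblast-like minus LEC-like cells gave 5.17 for Wnt2 (adjusted p = 7.03e-05), -2.52 for Wnt5b (adjusted p = 0.00569) and -4.20 for Wnt5a (adjusted p = 0.00126), with 8.18% of all genes called. Lamina propria fibroblast-like minus myofibroblast-like cells gave 4.83 for Wnt4 (adjusted p = 3.19e-08), 2.36 for Wnt5a (adjusted p = 3.45e-06) and 1.45 for Wnt5b (adjusted p = 0.0179), with 4.73% of all genes called. Myofibroblast-like minus LEC-like cells gave 6.10 for Wnt2 (adjusted p = 0.00372) and -3.24 for Wnt5a (standard error 0.37, adjusted p = 0.00044), with 6.86% of all genes called. The rises of Wnt5a and Wnt5b in LEC-like cells were not called without the large intestine.

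Among the 54 groups of 4 libraries with enough UMIs to be looked at, 1 held a library far from the others by Dixon's test, and chance gives about 1 in 20. Wnt5a in small intestinal blood endothelial-like cells was at 10.9 CPM in the second proximal library and at 5.83, 5.67 and 6.43 CPM in the other 3.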

How the results depend on the processing

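Where an alternative did not test a ligand, no value was counted, neither as kept nor as lost. Of 53 called results for single ligands, 25 were called in every alternative run that tested them and 28 were lost or reversed in some. Of their 819 values under alternatives, 751 kept direction and call, 66 kept the direction without the call and 2 reversed: Wnt5a in pericyte-like against trophocyte-like cells was 0.16 with cells gated one by one, and Wnt4 in LEC-like cells of the cecum and large intestine -0.38 with doublets kept. Of the results not called, 2 were called in the other direction: Wnt2 in lamina propria fibroblast-like against trophocyte-like cells (1.07, and -0.96 with the small intestinal libraries alone) and Wnt6 in LEC-like against blood endothelial-like cells (1.16, and -2.21 by limma-voom). The class with the highest level was the same for 8 of 8 ligands after subtraction of free RNA and by the thinned share of cells.

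The number of ligands called moved past 1.5-fold as follows. For lamina propria fibroblast-like against trophocyte-like cells it went from 3 to 6 (gated) and 7 (small intestinal libraries only), for universal fibroblast-like against trophocyte-like cells from 2 to 0 (gated), 6 (only both classes in the fit) and 5 (small intestinal libraries only), for pericyte-like against myofibroblast-like cells from 4 to 2 (doublets kept) and 1 (gated), and for LEC-like against blood endothelial-like cells from 2 to 4 (limma-voom, and small intestinal libraries only). With the small intestinal libraries only, the share of all genes called rose too, from 20.8% to 27.8%, 11.9% to 16.7% and 46.8% to 52.1% in the same order. With limma-voom 7666 of 14915 genes were called between LEC-like and blood endothelial-like cells, against 6982. For gated cells, doublets kept and only both classes in the fit, such shares are not given here. Distal against proximal, 1 call became 3 without a filter on low counts, 0 with cells gated, and 1 to 3 with each library left out. With the replicate block it became 5. Calls over all genes in trophocyte-like cells rose as well, from 26 to 403 without the filter, 55 to 200 with 1 library left out and 542 with the replicate block. In lamina propria fibroblast-like cells they rose from 18 to 258 without the filter and 754 with the replicate block. The replicate numbers did not pair the samples, since 2 pairs are too few and the labels do not say what a number marks. The deviations of same-numbered libraries correlated at -0.00822 to 0.433 over 13 classes. Over the cecum and large intestine against the small intestine, the 19 calls went to 13 to 18 with 1 library left out. Without the cecum, calls over all genes went from 6574 to 3140 in lamina propria fibroblast-like and from 3203 to 1425 in LEC-like cells. Without the large intestine they went from 810 to 1591 in universal fibroblast-like cells. The causes were not tested.

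Counts over all genes moved past 1.5-fold as well. Between classes they went from 6597 to 10312 in SEMF-like against trophocyte-like, 3102 to 6026 in lamina propria fibroblast-like against trophocyte-like, 3385 to 2224 in telocyte-like against SEMF-like and 1774 to between 911 and 3148 in universal fibroblast-like against trophocyte-like cells. Between the cecum and large intestine and the small intestine they went from 8 to between 0 and 556 in B or plasma cell-like, 3203 to between 1425 and 2065 in LEC-like, 6574 to between 3140 and 4054 in lamina propria fibroblast-like, 1696 to between 552 and 1093 in myofibroblast-like, 1844 to between 120 and 1141 in pericyte-like, 1951 to between 765 and 3048 in telocyte-like and 810 to between 110 and 2436 in universal fibroblast-like cells. Distal against proximal they went from 0 to between 1 and 748 in B or plasma cell-like, 0 to between 6 and 286 in LEC-like, 0 to between 1 and 433 in SEMF-like, 2 to between 0 and 110 in T cell or ILC-like, 0 to between 1 and 186 in blood endothelial-like, 0 to between 3 and 177 in glia-like, 18 to between 0 and 754 in lamina propria fibroblast-like, 0 to between 4 and 131 in myeloid-like, 9 to between 0 and 138 in myofibroblast-like, 0 to between 1 and 222 in pericyte-like, 2 to between 1 and 105 in telocyte-like, 26 to between 55 and 542 in trophocyte-like and 0 to between 4 and 98 in universal fibroblast-like cells.

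Depth limits the rare ligands most: Wnt6, Wnt9a and Wnt11 were under the filter in several classes, and the cecum and large intestine held 85 to 132 myofibroblast-like and 120 to 341 pericyte-like cells. With 2 libraries on a side, 1 of each region, a difference between cecum and large intestine adds to the spread.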
